A study of Mus musculus with 4 samples.

Results

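The genes described here are the 4 ligands Vegfa, Vegfb, Vegfc and Pgf, the 3 receptor tyrosine kinase genes Flt1, Kdr and Flt4, and the 2 neuropilin genes Nrp1 and Nrp2. All probe sets were taken whose only gene symbol in the array annotation was one of these names. This gave 22 probe sets for 9 genes, out of 45037 probe sets that are not controls and 18193 gene symbols. They were read in 4 mouse mammary tumours, with 1 Affymetrix mouse 430 2.0 array for each tumour.

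All 4 tumours grew in nude mice, which lack a thymus and most T cells but keep other host cells, after transplantation of Eph4 cells, an established mouse mammary epithelial line. In both groups the cells had been transduced with ETV6-NTRK3 (EN), a fusion oncogene that joins the ETV6 transcription factor gene to the kinase part of the neurotrophin receptor gene NTRK3. The 2 tumours named Eph_EN in the labels carried the fusion alone and are called EN tumours. The 2 named Eph_EN_DN also expressed TAM67, a dominant negative c-Jun, and are called EN-TAM67 tumours. The study asked how far tumour formation by the fusion passes through AP-1, the transcription factor complex of Jun and Fos proteins. The promoters that drove the constructs, whether lines were clonal, and the age of the mice are not given in the sources used here, and no label states that tumours of the same group came from separate mice. The p-values thus cover the spread among these arrays alone, part of which may be technical.

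Vascular endothelial growth factors are secreted dimers that bind receptor tyrosine kinases found mainly on endothelial cells. VEGF-A acts through the receptor encoded by Kdr to drive vessel growth, while the receptor encoded by Flt1 binds VEGF-A, VEGF-B and placental growth factor and can act as a decoy. VEGF-C acts through the receptor encoded by Flt4 on lymphatic vessels. Neuropilins are co-receptors for these ligands and also bind class 3 semaphorins. In mammary tumours the ligands can come from tumour or stromal cells, whereas Kdr and Flt4 mark vessels. In RNA from a whole tumour, fewer cells of a type and less RNA per cell cannot be told apart.

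No VEGF ligand, receptor or neuropilin passed the test between the groups. Each of the 7 ligand probe sets read lower on average in EN-TAM67 tumours, with differences of -0.50 to -0.063, and so did 4 of 7 receptor probe sets. The neuropilins split, with 5 of 8 probe sets lower and Nrp2 1456778_at also lower when each array was centred on its median. Each difference is the EN-TAM67 mean less the EN mean of log2(intensity + 16), from n = 2 tumours per group. Of the 22 probe sets, 16 were tested, because the dimmest 40% of probe sets (a mean below 27.2 intensity units over the 4 arrays) were left out of the fit. With limma and Benjamini-Hochberg adjustment over 27022 probe sets, 0 of the 16 had an adjusted p under 0.05, where 0.226% of all probe sets tested did (61, of which 15, or 0.0555%, were higher and 46, or 0.17%, lower). Of the 16, 4 passed the filter through 1 group alone: the EN mean of Nrp2 1447343_at and the EN-TAM67 means of Flt1 1419300_at, Flt4 1421442_at and Vegfc 1419417_at were below that limit, so counts over the 16 support nothing about the family. The lowest adjusted p of a VEGF family probe set was 0.491. At an unadjusted p under 0.05, 1 of the 16 passed (Nrp2 1447343_at, higher in EN-TAM67), beside 9.48% of all probe sets tested (5.2% higher and 4.28% lower). With no filter on dim probe sets, limma called 0 of 22 (lowest adjusted p = 0.556), where it called 0.335% of all; 2 of the 22 had an unadjusted p under 0.05, beside 7.88% of all. For a single probe set with 2 tumours against 2, an exact two-sided permutation test cannot go below p = 0.333.

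The median difference over the 16 tested probe sets was -0.11, and 13 of them were negative. Over all 27022 probe sets the median was 0.041 and 44.9% were negative. Leaving out EN tumour 1 put the family median at -0.29, and leaving out EN tumour 2 at -0.025. It was -0.21 with EN-TAM67 tumour 1 left out and -0.027 with EN-TAM67 tumour 2 left out. The number of all probe sets called moved as well, to 140 with EN tumour 1 left out, 273 with EN tumour 2, 84 with EN-TAM67 tumour 1 and 37 with EN-TAM67 tumour 2 left out, and 0 of the 16 were called in any of these. The groups did not overlap in 4 of the 16 tested probe sets, 3 lower and 1 higher, beside 39.8% of all probe sets tested (18.1% lower and 21.7% higher). Over all 22 they did not overlap in 8, with 6 lower and 2 higher, beside 37.3% of all probe sets that are not controls (15.9% lower and 21.5% higher). The group difference was larger than the gap between the tumours of either group in 2 of the 16 tested, Vegfa 1420909_at and Nrp2 1447343_at, beside 26.2% of all tested.

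**Figure D1:**
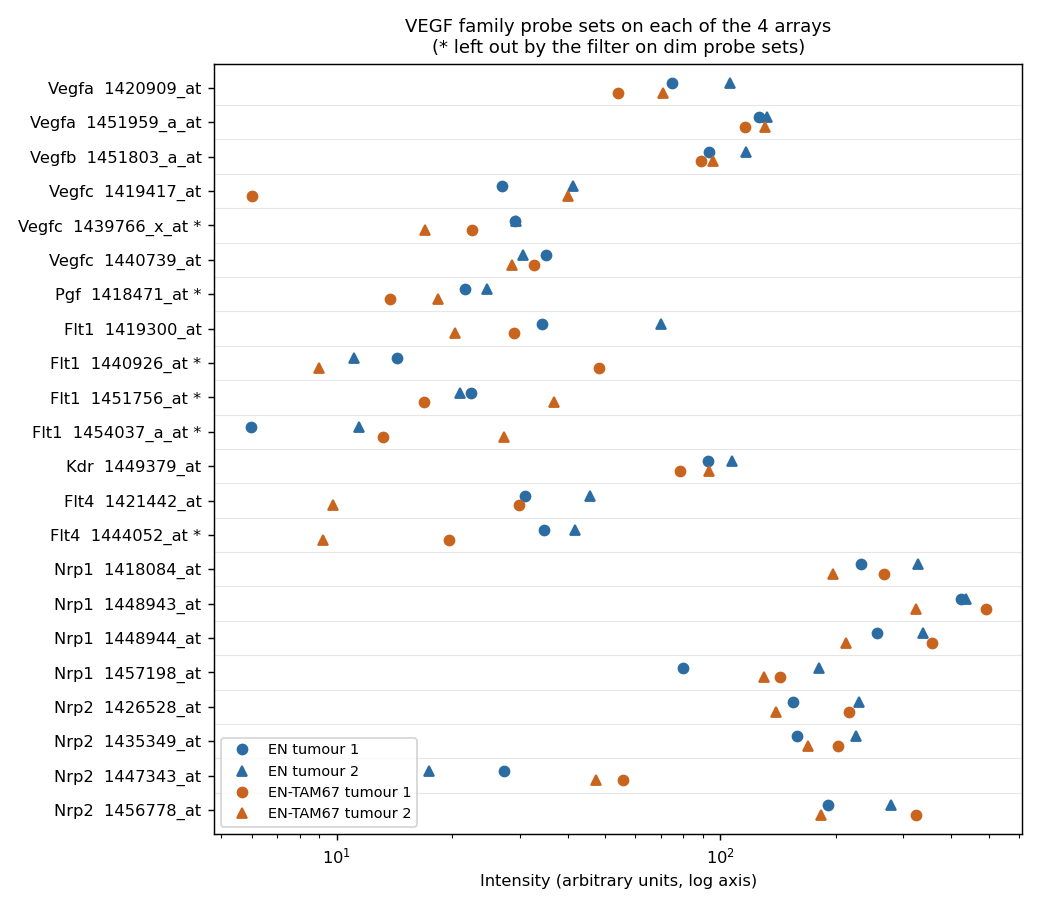
Intensity of each VEGF family probe set (rows) on each array, on a log axis in arbitrary units; blue marks are EN tumours, orange marks EN-TAM67 tumours, circles tumour 1 and triangles tumour 2, and an asterisk marks the 6 dim probe sets not tested. The orange marks lie below both blue marks in 6 rows and above both in 2.

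Several array-wide measures differed between the groups. The median intensity was 35.6 and 35.9 for EN, against 38.1 and 40.8 for EN-TAM67 tumours, and the ratio of 3' to 5' signal for Gapdh was 0.938 and 1.04 against 1.17 and 1.11. The same ratio for beta-actin was 1.11 and 1.19 against 1.31 and 1.34, and the 18S ribosomal RNA controls averaged 5.43 and 6.40 against 6.76 and 7.43 on log2(intensity + 16). Of 10 epithelial markers, 9 were left after the filter, and their summed intensity was 3565 and 3808 in EN, against 2947 and 3194 in EN-TAM67 tumours. Adipocyte markers summed to 624 and 382 units in EN, against 1519 and 6538 in EN-TAM67 tumours. The part of these measures in the values below was not tested, and no probe set was used to check the constructs.

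VEGF-A is the main growth signal for blood vessels and is induced by low oxygen. The Vegfa probe set 1420909_at read 74.7 and 106 intensity units for EN, against 54.0 and 70.6 for EN-TAM67 tumours. The groups did not overlap, although EN tumour 1 and EN-TAM67 tumour 2 lay close together. Its difference was -0.43 ± 0.24 (SE, limma adjusted p = 0.613), with a 95% interval of -0.95 to 0.087, and it was -0.22 with EN tumour 2 left out and -0.28 with EN-TAM67 tumour 1 left out. The other Vegfa probe set, 1451959_a_at, read 126 and 132 (129.1 ± 4.77, SD, n = 2) in EN, against 116 and 131 (123 ± 10.5) in EN-TAM67 tumours. Here the groups overlapped, and the difference was -0.063 with an interval of -0.53 to 0.41. The suffix _a_at marks a probe set whose probes match several transcripts of one gene. The intervals of both Vegfa probe sets include no difference, and the first also includes a fall of close to 0.95 on the log2 scale.

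Vegfb encodes a ligand of the Flt1 receptor. Its probe set 1451803_a_at read 93.2 and 117 units in EN, against 89.1 and 95.5 in EN-TAM67 tumours. EN-TAM67 tumour 2 lay above EN tumour 1, so the groups overlapped, and the difference was -0.15 ± 0.22 (limma adjusted p = 0.878), or -0.012 with EN tumour 2 left out and -0.29 with EN tumour 1 left out. Pgf encodes placental growth factor, which also binds Flt1. The Pgf probe set 1418471_at was dim and was not tested, with 21.6 and 24.7 units in EN, against 13.7 and 18.4 in EN-TAM67 tumours. Both EN-TAM67 values were the lower ones, at a difference of -0.29, and all 4 values lay below the median of their array.

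Vegfc encodes the ligand of lymphatic growth and had 3 probe sets. On 1419417_at the EN tumours read 26.9 and 41.3 units and the EN-TAM67 tumours 6.0 and 40.1. The low value of EN-TAM67 tumour 1 set the difference of -0.50 ± 0.52 (limma adjusted p = 0.814), which was 0.18 without that tumour. On 1440739_at the values were 35.1 and 30.6 in EN, against 32.6 and 28.5 in EN-TAM67 tumours. These overlapped, and the difference was -0.069 ± 0.37 (limma adjusted p = 0.977). The dim probe set 1439766_x_at, whose suffix marks probes that may also bind other transcripts, read 29.2 and 29.4 in EN, against 22.5 and 17.0 in EN-TAM67 tumours. Its groups did not overlap (difference -0.35, not tested), while the groups of the tested Vegfc probe sets did.

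**Figure D2:**
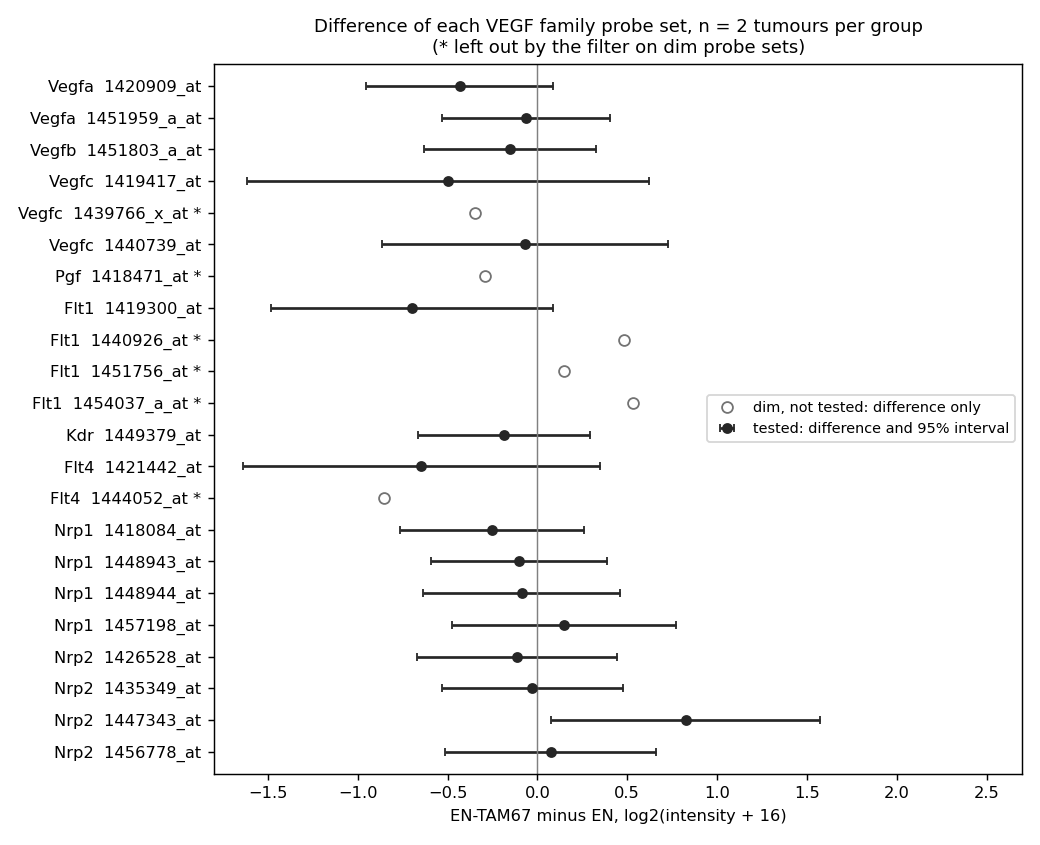
Difference between the groups for each VEGF family probe set, EN-TAM67 minus EN on log2(intensity + 16); filled points with bars are the 16 tested probe sets with 95% intervals from limma, and open points the 6 dim ones with no test. The interval leaves out 0 in 1 row, Nrp2 1447343_at (0.078 to 1.58), whose adjusted p was 0.491.

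The tumours differ by a protein that acts on AP-1, so the letters upstream of the receptor genes and of Vegfa are shown. They were searched for a broad AP-1 pattern (TGANTCA, where N is any base). The related cyclic AMP response element (TGACGTCA), which dimers of c-Jun with ATF proteins can bind, was also searched. The core letters of the hypoxia response element (ACGTG or GCGTG) were searched too. Sequences are the 250 bases before a transcript start in RefSeq, build GRCm38.p6, written 5′ to 3′ on the gene's strand, and capitals mark any of these matches on either strand. The windows are chr5:147726012-147726261 (minus strand) for Flt1, chr5:75978456-75978705 (minus) for Kdr, chr11:49609429-49609678 (plus) for Flt4 and chr17:46032378-46032627 (minus) for Vegfa.
Flt1: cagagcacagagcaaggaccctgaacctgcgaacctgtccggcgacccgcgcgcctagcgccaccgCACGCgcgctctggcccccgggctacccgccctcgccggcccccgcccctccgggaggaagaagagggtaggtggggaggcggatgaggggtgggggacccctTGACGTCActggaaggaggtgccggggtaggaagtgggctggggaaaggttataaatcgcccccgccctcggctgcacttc
Kdr: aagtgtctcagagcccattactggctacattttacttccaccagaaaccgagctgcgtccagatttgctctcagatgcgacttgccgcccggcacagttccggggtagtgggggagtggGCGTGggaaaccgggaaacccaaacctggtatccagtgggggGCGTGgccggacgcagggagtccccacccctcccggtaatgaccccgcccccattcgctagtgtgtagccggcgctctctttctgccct
Flt4: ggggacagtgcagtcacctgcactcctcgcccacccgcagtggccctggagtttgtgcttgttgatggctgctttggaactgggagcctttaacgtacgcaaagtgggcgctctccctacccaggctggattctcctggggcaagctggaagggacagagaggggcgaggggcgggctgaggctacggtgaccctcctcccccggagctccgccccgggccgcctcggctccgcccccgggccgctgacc
Vegfa: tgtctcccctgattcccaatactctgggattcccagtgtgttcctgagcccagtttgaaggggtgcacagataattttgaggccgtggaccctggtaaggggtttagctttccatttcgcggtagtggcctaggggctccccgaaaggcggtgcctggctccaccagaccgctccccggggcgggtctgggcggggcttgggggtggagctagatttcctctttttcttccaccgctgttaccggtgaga
RefSeq held 11 such windows for the 9 genes, since Vegfa and Pgf have more than 1 start. The AP-1 letters occurred in 0 of the 11, beside 6.75% of 32851 windows of the same length. The cyclic AMP response element occurred in 1, that of Flt1, starting 81 bases before the transcript start, beside 1.55% of all windows. ACGTG occurred in 1 of the 11 (a second Vegfa start, not shown), beside 16.6% of all, and GCGTG in 7 of the 11, beside 28.2%. The 11 windows were 59.2 to 76.4% G or C, and the shares over all windows were not matched for base content. Bases outside the 250 were not searched, so a missing match covers the window alone. Matches to different letters can overlap, and a match is a description of the window, not a binding site.

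Flt1, the receptor gene whose window holds the cyclic AMP response element letters, had 4 probe sets that went different ways. On 1419300_at, the only one tested, the EN tumours read 34.3 and 69.8 units and the EN-TAM67 tumours 29.0 and 20.4. Both EN-TAM67 values were lower than either EN value, with EN tumour 2 standing well above the other 3 arrays. The difference was -0.70 ± 0.37 (SE, limma adjusted p = 0.584), with an interval of -1.49 to 0.087, and it was -0.31 without EN tumour 2. The 3 dim probe sets of Flt1 had positive differences. The values of 1454037_a_at were 5.97 and 11.4 in EN, against 13.2 and 27.2 in EN-TAM67 tumours, so that the groups did not overlap in the opposite direction (0.53). On 1440926_at the 4 arrays read 14.4, 11.1, 48.3 and 8.96, and on 1451756_at 22.4, 21.0, 16.9 and 36.9, in the order EN tumours 1 and 2 and EN-TAM67 tumours 1 and 2. In each of these the positive difference (0.48 and 0.15) came with 1 high EN-TAM67 tumour, a different one for each probe set. The dim probe sets lay below the array median on every array but EN-TAM67 tumour 1 for 1440926_at. The tested 1419300_at was also low, above the array median in EN tumour 2 alone. Its difference was -0.98 to -0.37 over the alternatives that kept all arrays.

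Kdr encodes the main signalling receptor of VEGF-A and had 1 probe set. Its values were 92.8 and 107 units in EN (99.95 ± 10.2, SD, n = 2) and 78.5 and 93.6 in EN-TAM67 tumours (86.0 ± 10.7). EN-TAM67 tumour 2 lay just above EN tumour 1, so the groups overlapped. The Kdr difference was -0.19 ± 0.22 (limma adjusted p = 0.841), with an interval of -0.66 to 0.29. It was -0.079 with EN-TAM67 tumour 1 left out, -0.096 with EN tumour 2 left out and -0.29 with EN-TAM67 tumour 2 left out.

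Flt4, the lymphatic receptor gene, had 2 probe sets, and both read lower in each EN-TAM67 tumour. On 1421442_at the EN tumours read 30.9 and 45.6 units and the EN-TAM67 tumours 29.8 and 9.75. EN-TAM67 tumour 1 was within about a unit of EN tumour 1, and the difference of -0.65 ± 0.47 (limma adjusted p = 0.705) was -0.23 without EN-TAM67 tumour 2. On the dim probe set 1444052_at the values were 34.7 and 41.8 in EN, against 19.6 and 9.20 in EN-TAM67 tumours. Its difference of -0.85 was the most negative of the 22. In the fit with no filter its unadjusted p was 0.0411 and its adjusted p from limma 0.607. Because these values lie near the dim end of the scale, the size rests on the pseudocount, at -1.43 with a pseudocount of 1 and -0.38 with 64.

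Nrp1 encodes a co-receptor of VEGF-A that is also found on neurons and some immune cells, and all of its 4 probe sets were tested. On 1418084_at the EN tumours read 233 and 327 units and the EN-TAM67 tumours 266 and 197. On 1448943_at the values were 424 and 436 in EN, against 492 and 323 in EN-TAM67 tumours. On 1448944_at they were 256 and 337 in EN, against 355 and 212 in EN-TAM67 tumours. In these 3 probe sets EN-TAM67 tumour 2 was the lowest array, and EN-TAM67 tumour 1 lay among or above the EN tumours. The fourth, 1457198_at, read 80.0 and 181 in EN, against 143 and 129.8 in EN-TAM67 tumours, with EN tumour 1 the lowest. The groups overlapped in all 4, at differences of -0.25, -0.11, -0.088 and 0.15 (the first -0.021 with EN tumour 2 left out and -0.048 with EN-TAM67 tumour 2 left out), and the lowest adjusted p from limma was 0.788.

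Nrp2 encodes the co-receptor of VEGF-C and had 4 probe sets, of which 3 showed a like pattern over the arrays. On 1426528_at the EN tumours read 155 and 230.2 units and the EN-TAM67 tumours 216 and 139. On 1435349_at the values were 158 and 226 in EN, against 202 and 169 in EN-TAM67 tumours. On 1456778_at they were 190.3 and 279 in EN, against 323 and 183 in EN-TAM67 tumours. In all 3, EN tumour 2 and EN-TAM67 tumour 1 were the high arrays and the other tumour of each group was low. The gap between the tumours of a group was 0.23 to 0.77 on the log2 scale in these probe sets, against differences between the groups of -0.11, -0.029 and 0.074. The remaining probe set, 1447343_at, read 27.2 and 17.4 in EN, against 55.6 and 47.4 in EN-TAM67 tumours. Both EN-TAM67 values were higher than either EN value, and the difference was 0.83 ± 0.35 (SE, limma unadjusted p = 0.0328, adjusted p = 0.491). The EN mean of 22.3 units was below the filter limit of 27.2, so this probe set was tested only through its high EN-TAM67 values (mean 51.5). Its size rests on the pseudocount, at 1.20 with a pseudocount of 1 and 0.42 with 64. It is 1 of 4 VEGF family probe sets for which the annotation gives no accession, and the direction of the other Nrp2 probe sets changed when single arrays were left out.

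Markers of blood vessel endothelium did not pass the test. Of 22 endothelial markers 14 were left after the filter, 12 of these were negative, and 0 of their 20 probe sets passed limma's test (2 lower and 0 higher at an unadjusted p under 0.05). At that p, 4.28% of all probe sets tested were lower and 5.2% higher, which holds beside the counts of all lists below. List medians are over the brightest tested probe set of each gene, and the median over all genes taken that way was 0.020. The endothelial median was -0.29, or -0.17 over the 20 probe sets, with Clec14a (0.17) and Ecscr (0.091) the positive genes. Their summed intensity was 1103 and 1465 units in EN, against 947 and 1030 in EN-TAM67 tumours, and none of the 14 was at 0 on any array. Cdh5, which encodes the endothelial junction protein VE-cadherin, read 84.9 and 153 in EN, against 59.0 and 65.2 in EN-TAM67 tumours (-0.74 ± 0.26, limma adjusted p = 0.376). Eng, which encodes endoglin, read 182 and 238 in EN, against 125 and 118 in EN-TAM67 tumours (-0.70 ± 0.23, adjusted p = 0.326). Without EN tumour 2 the Cdh5 difference was -0.37. In both genes EN tumour 2 was the highest array, as it was for Kdr, Flt1 1419300_at and both Flt4 probe sets. The part of the endothelial markers in the receptor values was not tested.

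With all 4 arrays, lymphatic endothelial markers had the opposite sign to Flt4. Of 6 listed, 4 were tested and all had positive differences (median 0.31), with 0 of 6 probe sets past limma's test and 0 at an unadjusted p under 0.05. Reln, a secreted glycoprotein of lymphatic vessels and neurons, read 50.0 and 52.9 units in EN, against 79.5 and 72.5 in EN-TAM67 tumours (0.45 ± 0.23, adjusted p = 0.579). Lyve1, a hyaluronan receptor of lymphatic vessels that some macrophages also carry, was at 0.32 ± 0.31 (adjusted p = 0.792). Their summed intensity was 271 and 440.3 in EN, against 421 and 422 in EN-TAM67 tumours, so the groups overlapped. Pdpn alone gave 151 and 210 of these units in EN, against 192 and 190 in EN-TAM67 tumours. Prox1, also on the list, was not among the 4 tested. With EN tumour 1 left out, Lyve1 (-0.24), Mmrn1 (-0.11) and Pdpn (-0.13) turned negative and Reln (0.42) stayed positive.

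**Figure D3:**
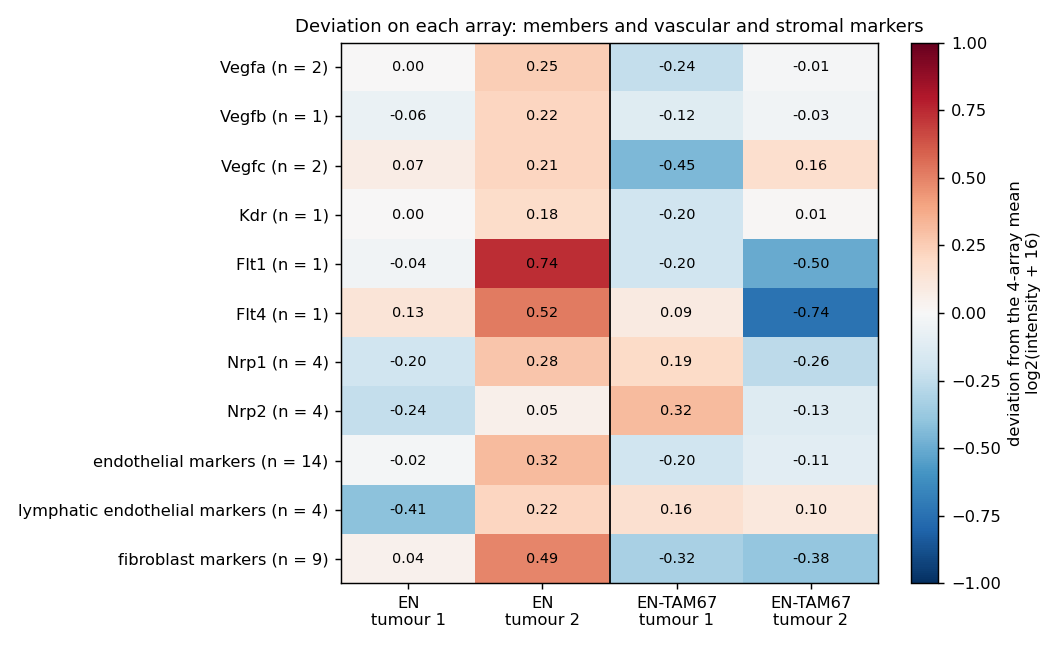
Deviation of each array from the 4-array mean, on log2(intensity + 16), as the mean over the tested probe sets of a gene (n) or the median over the tested genes of a marker list (n); red is above the mean and blue below. The rows drawn are the 8 genes with a tested probe set (Pgf had none) and 3 marker lists. EN tumour 2 is above the mean in all of these rows, by 0.74 for Flt1 (1419300_at alone) and 0.32 for endothelial markers. The Flt1, Flt4, Vegfc and Nrp2 rows include a probe set that passed the filter through 1 group alone. EN-TAM67 tumour 1 is above the mean for Nrp1 (0.19) and Nrp2 (0.32) but below it for Vegfa (-0.24) and Kdr (-0.20).

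The plot of deviations shows that the tumours of a group differed in this family. Over the tested probe sets, EN tumour 2 lay above the 4-array mean for each of the 8 genes drawn, by 0.048 (Nrp2) to 0.74 (Flt1). EN tumour 1 lay between -0.24 (Nrp2) and 0.13 (Flt4). The Flt1 value is that of 1419300_at alone, which passed the filter only through its EN values. On the 3 dim Flt1 probe sets EN tumour 2 was not the highest array. The Flt4, Vegfc and Nrp2 values also include a probe set that passed through 1 group alone, so the row counts support nothing about the family. Of the EN-TAM67 tumours, tumour 1 was the lower for Vegfa, Vegfb, Vegfc and Kdr, and tumour 2 the lower for Flt1, Flt4, Nrp1 and Nrp2. Fibroblast markers, which can mark cells that make VEGF ligands, stood at 0.045 and 0.49 in EN, against -0.32 and -0.38 in EN-TAM67 tumours. All 9 fibroblast markers were tested, with 8 negative, a median difference of -0.71 (-0.50 over the 15 probe sets) and 0 of 15 probe sets past limma's test (9 lower and 0 higher at an unadjusted p under 0.05). With EN tumour 1 left out 5 passed, all lower (Thy1, Lum, Col1a1, Col3a1 and Col1a2), and with no filter 2 passed (Lum and Col3a1). Lum, which encodes lumican, was at -1.07 ± 0.27 (adjusted p = 0.161) and Thy1 at -0.96 ± 0.33 (adjusted p = 0.376). Their summed intensity was 19048 and 25894 units in EN, against 17028 and 14707 in EN-TAM67 tumours.

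Other cells that carry members of the family were followed by their markers. Macrophages can express Flt1 and Nrp1, and 8 of 10 macrophage markers were negative (median -0.39, or -0.57 over 15 probe sets). Of the 15, 0 passed limma's test and 9 were lower at an unadjusted p under 0.05, while 5 passed with EN tumour 2 left out and 1 with EN-TAM67 tumour 1 left out, all lower. In the fit to all arrays Lyz2 (lysozyme) was at -0.88 ± 0.19 (adjusted p = 0.0784) and C1qb, a complement gene, at -0.82 ± 0.19 (adjusted p = 0.104). Their summed intensity was 17929 and 15201 units in EN, against 12004 and 9611 in EN-TAM67 tumours. Pericyte markers had a median of -0.0055 over 8 genes, with 0 of 15 probe sets past the test (2 lower at an unadjusted p under 0.05), Pdgfrb at -0.45 ± 0.19 (limma adjusted p = 0.488) and Des at 0.44 ± 0.27 (adjusted p = 0.653). Their summed intensity was 1564 and 1848 in EN, against 1484 and 1377 in EN-TAM67 tumours. Neurons express neuropilins, and neural markers were all negative among the 4 tested (median -0.56, 0 of 9 probe sets past the test, 4 lower at an unadjusted p under 0.05). Ncam1 was at -0.79 ± 0.26 (limma adjusted p = 0.336) and S100b at -0.64 ± 0.27 (adjusted p = 0.493), and the list summed to 417 and 499.8 in EN, against 290.3 and 301 in EN-TAM67 tumours.

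Epithelial markers had a median of -0.20 over 9 genes, with 5 negative and 0 of 12 probe sets past limma's test (3 lower at an unadjusted p under 0.05). Krt14, a basal keratin, was at 0.67 ± 0.33 (adjusted p = 0.560) and Krt5, its partner keratin, at -0.63 ± 0.26 (adjusted p = 0.474). Krt14 read 167 and 149 units in EN, against 157 and 425 in EN-TAM67 tumours. Its difference rested on EN-TAM67 tumour 2 and was -0.0089 without that tumour. With all arrays, fat and muscle were the marker lists in which genes passed the test, both in the higher direction. Car3, a carbonic anhydrase abundant in fat, rose on 2 probe sets, with the brighter at 128 and 64.1 units in EN, against 591 and 1994 in EN-TAM67 tumours (3.36 ± 0.41, limma adjusted p = 0.00488). The adipocyte count of 2 of 10 probe sets was 1 with EN-TAM67 tumour 2 left out, 8 with EN-TAM67 tumour 1 left out and 5 with either EN tumour left out; it was 0 with a robust variance, without the intensity trend and with the tumour number as a block. Myh1, a fast muscle myosin, rose from 39.0 and 59.6 to 142 and 163 units (1.39 ± 0.24, limma adjusted p = 0.0254), as 1 of 5 muscle probe sets; 0 muscle probe sets passed without EN tumour 1 or without EN-TAM67 tumour 2, with median centring, without the trend or with the block. Of 7 muscle markers listed 3 were tested, Myh1, Acta1 (0.19 ± 0.36, limma adjusted p = 0.912) and Ckm (-0.0044 ± 0.31, adjusted p = 0.998). The summed muscle markers were at 124 and 123 units in EN, against 226 and 238 in EN-TAM67 tumours. Most of the rise in that sum was the rise of Myh1 alone.

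The other genes of VEGF signalling did not pass the test either. Of 36 listed genes for enzymes, adaptors and transcription factors downstream of the receptors, and the ligand gene Vegfd, 30 were tested and 6 were not analysed here. Of their 72 probe sets, 0 passed limma's test and 10 had an unadjusted p under 0.05 (6 higher and 4 lower), beside 9.48% of all. The median over the 30 genes was -0.12 (-0.073 over the 72 probe sets), with 19 negative. Prkcb, a protein kinase C, had the largest difference, at 188 and 35.4 units in EN, against 294 and 235 in EN-TAM67 tumours (1.44 ± 0.43, adjusted p = 0.284). The low value was that of EN tumour 2, and the difference rested on it: 0.45 with EN tumour 2 left out (limma adjusted p = 0.666) and 2.44 with EN tumour 1, the EN tumour nearer to the EN-TAM67 values, left out (adjusted p = 6.78e-05). Mapkapk2, a kinase of the p38 pathway that VEGF-A engages in endothelial cells, read 327 and 335 in EN, against 213 and 206 in EN-TAM67 tumours (-0.62 ± 0.21, adjusted p = 0.355).

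Semaphorins share the neuropilins with VEGF ligands and signal through plexins. Of 13 semaphorin, plexin and adaptor genes 12 were tested, on 20 probe sets, and 0 passed limma's test (2 higher and 0 lower at an unadjusted p under 0.05). Sema3c, a secreted ligand of both neuropilins, read 203 and 192 units in EN, against 416 and 381 in EN-TAM67 tumours. The tumours of each group lay close together and the groups far apart, at a difference of 0.95 ± 0.21 (limma adjusted p = 0.0914). At a threshold of 0.05 Sema3c passed only when no dim probe sets were left out (limma adjusted p = 0.0248), with the same difference. No probe set of the list passed at that threshold under any other alternative. With single arrays left out the Sema3c difference was 0.89 to 1.01. Sema3e, the ligand of plexin D1, read 63.3 and 31.0 in EN, against 83.7 and 105.0 in EN-TAM67 tumours (0.85 ± 0.27, adjusted p = 0.326). The median over the 12 genes was 0.11, beside 0.020 over all genes.

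Genes that endothelial cells are known to switch with VEGF had a median of -0.21 over 15 tested of 17 listed, with 12 negative, 0 of 24 probe sets past limma's test and 2 lower at an unadjusted p under 0.05. Aplnr, the apelin receptor of sprouting vessels, read 56.3 and 87.4 units in EN, against 39.1 and 32.8 in EN-TAM67 tumours (-0.74 ± 0.27, adjusted p = 0.416), or -0.48 with EN tumour 2 left out. Adm, which encodes adrenomedullin and stands on the hypoxia list too, was at 0.46 ± 0.40 (adjusted p = 0.764), with EN-TAM67 tumour 2 the highest array and the other 3 between 25.0 and 35.4 units. The angiopoietin and Tie list kept 4 of 6 genes, with 0 of 7 probe sets past the test, 1 lower at an unadjusted p under 0.05, and a median of -0.24 (-0.082 over the 7 probe sets). Angpt1, the pericyte-derived ligand that stabilises vessels, read 132 and 97.6 in EN, against 82.5 and 34.4 in EN-TAM67 tumours (-0.88 ± 0.29, limma adjusted p = 0.343), or -0.40 with EN-TAM67 tumour 2 left out. Ptprb, an endothelial phosphatase that stands on the endothelial list too, was at -0.40 ± 0.30 (limma adjusted p = 0.719). Angpt2 stands on the VEGF-responsive list too, so the medians of these lists share genes. Angptl4 was the 1 positive gene of the angiopoietin and Tie list, at 0.35.

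Hypoxia genes, which include the factors that induce Vegfa, did not pass the test. All 20 were tested on 46 probe sets, with 0 past limma's threshold and 0 at an unadjusted p under 0.05. The median was 0.074, with 7 negative and 13 positive, beside 0.020 over all genes. After Adm, the largest difference was that of Ero1a, an oxidase of the endoplasmic reticulum, at 138 and 162 units in EN, against 167 and 232 in EN-TAM67 tumours (0.36 ± 0.23, adjusted p = 0.665).

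**Figure D4:**
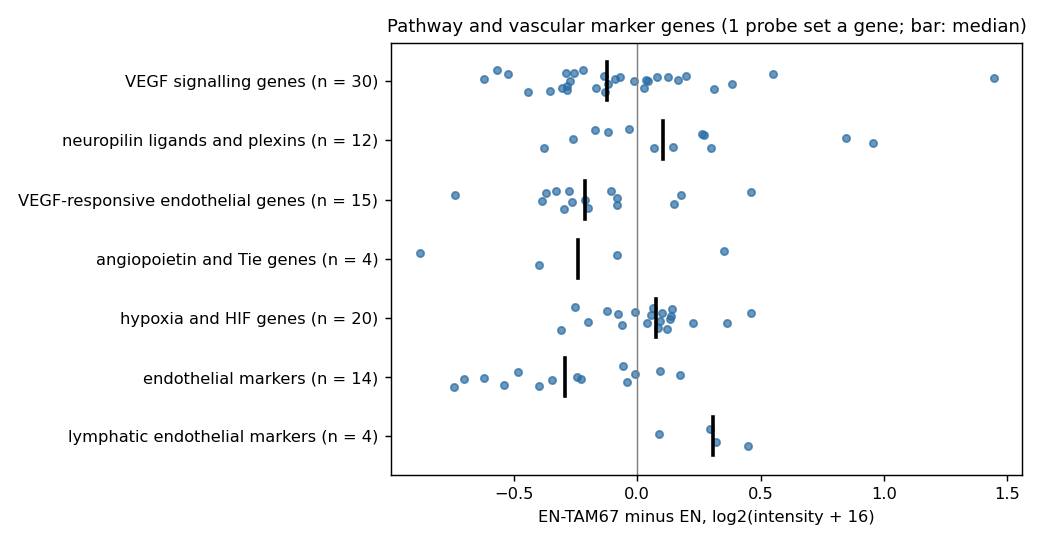
Differences between the groups for the genes of 5 pathway lists and 2 vascular marker lists, EN-TAM67 minus EN on log2(intensity + 16), 1 probe set a gene (the brightest), with a bar at the list's median. Endothelial markers lie mostly below 0 (median -0.29) and lymphatic markers above (0.31), and Prkcb is the point farthest right, at 1.44.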

How the data were processed

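Total RNA from 4 tumours was labelled as biotinylated cRNA and hybridised to 1 array each, per the labels. Each array has a linear intensity for 45101 probe sets, deposited by the authors; the summary and scaling behind it are not given in the sources used. Array medians differ, no detection calls were used and no batch was given. With 2 arrays per group, the number of arrays limits the precision. Gene names come from the annotation of the platform; all 22 of the family matched by Entrez ID in RefSeq (GRCm38.p6).

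Of 45037 probe sets that are not controls, the dimmest 40% were left out. The remaining 27022 were each fitted with limma 3.58.1 in R 4.3.3 (eBayes with an intensity trend, two-sided, adjusted p under 0.05) on log2(intensity + 16). Fold changes of dim genes are therefore understated. The genes and lists were chosen with earlier results of these data known. Genes named from a list are those that passed or, for lists with none, the 2 farthest from 0 on the gene's brightest probe set. Lists were not tested as sets. No search was made for genes of like pattern, since 4 arrays cannot order patterns.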

Additional observations from a re-analysis of the deposited data

How the results depend on the processing

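Under 15 alternatives 0 VEGF family probe sets were called with limma, and the lowest adjusted p was 0.373 (Nrp1 1457198_at without EN tumour 2); 0 to 3 of them had an unadjusted p under 0.05. The family median stayed negative, at -0.21 with median centring and -0.29 to -0.025 with single arrays left out. Median centring also moved the median over all probe sets tested, from 0.041 to -0.058. Probe sets called over the whole array numbered 151 with no filter (36 higher and 115 lower), 147 at a threshold of 0.10 (36 and 111), 38 with median centring (9 and 29), and 78 with a pseudocount of 1 (23 higher). Without the intensity trend 0 were called (0 higher and 0 lower, 2129 at an unadjusted p under 0.05). The tumour number as a replicate block left 4 (2 and 2); deviations of same-numbered tumours correlated at -0.038 and nothing in the labels pairs them. Leaving out each array gave 37 to 273 (14 to 130 higher and 23 to 143 lower). The lone tumour was then assumed to vary like the other group.

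Signs changed when arrays were left out for Vegfa 1451959_a_at (-0.14 to 0.014), Vegfc 1419417_at (-1.17 to 0.18), Nrp1 1448943_at (-0.40 to 0.19), 1448944_at (-0.44 to 0.26) and 1457198_at (-0.37 to 0.67), and Nrp2 1426528_at (-0.40 to 0.18), 1435349_at (-0.27 to 0.21) and 1456778_at (-0.31 to 0.46, and -0.025 with median centring). They also changed for the dim Flt1 probe sets 1440926_at (-0.20 to 1.16) and 1451756_at (-0.20 to 0.49). The cause was not tested. Low signal limits the values of Pgf, Flt4, Vegfc, the Flt1 probe sets and Nrp2 1447343_at.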
